A study of Mus musculus with 10 samples.

Results

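The genes described here set lymphatic endothelial cells of the lymph node (LN-LEC) apart from both other endothelial populations of the experiment at once. A gene was chosen when its 4 LN-LEC libraries all lay above, or all lay below, each of the 6 libraries of lymph node blood endothelial cells (LN-BEC) and of diaphragm lymphatic endothelial cells (D-LEC), while the LN-BEC and D-LEC means were within 2-fold of each other. Such genes are called separated below. Of all 23284 rows counted, 2274 were separated, 1202 of them higher and 1072 lower in LN-LEC. Predicted and unnamed genes were not tested, and 15344 of the other genes had a mean normalized count of at least 1 in at least 1 population. Among these, 1074 (7%) were separated as higher and 993 (6.47%) as lower, and all 207 separated rows outside the tested set carry names of predicted or unnamed genes. Because the levels themselves chose these genes, their values are given as a description and without p-values.

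The cells came from C57BL/6 (B6) mice of 6 to 8 weeks. LN-LEC (4 libraries) and LN-BEC (3 libraries) came from lymph nodes of several body sites that were mixed before the sort, the gut-draining ones included. D-LEC (3 libraries) came from the diaphragm. After depletion of CD45-positive cells, CD31-positive cells were sorted as LEC when they bore podoplanin (PDPN) and as BEC when they did not, so that every library holds cells of several mice and, for the node, cells of all its sinuses together. No treatment is named in the labels, and no sorting day, batch or pairing of libraries is given.

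Lymphatic endothelial cells form the wall of the vessels that return tissue fluid and leukocytes to the blood. Inside a node they line the sinuses through which lymph percolates, in contact with macrophages and arriving dendritic cells, and they take up particles, present antigen and secrete chemokines. The diaphragm holds lymphatic vessels that drain the peritoneal cavity. Blood endothelial cells of the node line its arterioles, capillaries and high endothelial venules, the vessels through which lymphocytes enter.

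The libraries held 22429940 to 48906070 counted fragments, and LN-LEC replicate 4 was the deepest. The labels matched the markers: the summed level of the lymphatic endothelial list (8 genes, 1 of them without a count in any library) was 142359 to 156823 in LN-LEC, 633519 to 659213 in D-LEC and 3368 to 10644 in LN-BEC. Each level is a count after division by its library's DESeq2 size factor, here called a normalized count. They are not scaled for gene length, so that they compare libraries and not genes. Of the lists for other cells, macrophage genes (20 in the list) summed to 5961 to 9479 in LN-LEC, 1362 to 1934 in LN-BEC and 10492 to 11356 in D-LEC. Emr1, which is only 1 of several defining markers, was at 0 to 5.66 in LN-LEC and 0 to 6.92 in the other libraries. Its level does not stand for the list, and the genes that make up most of these sums are not named here. The dendritic cell list (10 genes) summed to 3156 to 3662, 1769.8 to 1864 and 643 to 671. Among its defining markers, Itgax was at 1.13 to 6.92 in LN-LEC and 0 to 6.302 in the other libraries. Flt3 was at 0 to 1.26 in LN-LEC and 0 to 0.875 in the other libraries. Xcr1, also a defining marker, was higher in LN-LEC and is described further below. The platelet list (11 genes) summed to 10419 to 14090, 2301 to 2696 and 2661 to 3387. Of this, Itga2b, an integrin chain that is also in the list of node sinus markers, gave 7749 to 11140.0 in LN-LEC and 66.9 to 568 in the other libraries. Defining platelet markers went both ways. Ppbp, a platelet chemokine, was at 0 to 5.65 in LN-LEC and 18.4 to 101 in the other libraries. Gp9 had no count in LN-LEC and was near the floor elsewhere, so that it gives no direction. Its LN-BEC and D-LEC means were 0.27 and 1.47 times the level that 3 counts in each LN-LEC library would give. Gp1ba was higher in LN-LEC than in both other populations by the tests given below. The part of such cells in the separated genes was not tested. In such bulk libraries fewer cells of a type and less RNA per cell cannot be told apart.

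The pairwise comparisons that frame the separated genes share the LN-LEC libraries. In one negative binomial fit to all 10 libraries (edgeR quasi-likelihood F-test, Benjamini-Hochberg adjusted p under 0.05), 3041 genes (19.8%) were higher and 2822 (18.4%) lower in LN-LEC than in LN-BEC. Against D-LEC, 3690 genes (24%) were higher and 3336 (21.7%) lower. Higher against both populations were 1495 genes (9.74%), and lower against both were 1044 (6.8%). These percentages are the background for the gene lists below, where a gene is called higher or lower in both when it passed both tests in that direction.

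Of the 1074 separated genes that were higher, 869 were also called in both comparisons, as were 712 of the 993 that were lower. A further 626 genes were called higher in both and were not separated. In 552 of them all LN-LEC libraries did lie above the others, but LN-BEC and D-LEC differed by more than 2-fold, and in 74 libraries overlapped. For genes called lower the corresponding numbers were 332, 261 and 71. Without the 2-fold limit, 1714 genes (11.2%) lay above and 1282 (8.36%) below every other library. Sinus markers of node LEC are the plainest example of what the limit leaves out. Of 11 genes in that list 8 were called higher in both, yet none was separated. Stab2, a scavenger receptor of sinus endothelium, had a mean of 43482 (LN-LEC), 997 (LN-BEC) and 331 (D-LEC).

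Most separated genes differed by little. Among the higher genes the median log2 fold change was 0.81 against LN-BEC and 0.90 against D-LEC, and among the lower genes it was -0.60 and -0.65, beside medians of -0.01 and 0.03 over all genes tested. At least 2-fold in both comparisons were 380 of the higher and 249 of the lower genes, and at least 5-fold in both were 130 and 49. In 474 higher and 583 lower genes the difference was under 1.5-fold in at least 1 comparison. The split between the directions moved with the scaling of the libraries. When levels were scaled by library totals in place of size factors, which moved the median of all genes by 0.21 (log2) against LN-BEC, 1371 genes were separated as higher and 548 as lower, so that 71.4% were higher in place of 52%. The same rule, applied to each of the other populations in turn, gave 1382 higher and 1360 lower genes for LN-BEC and 2005 and 1589 for D-LEC.

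**Figure D1:**
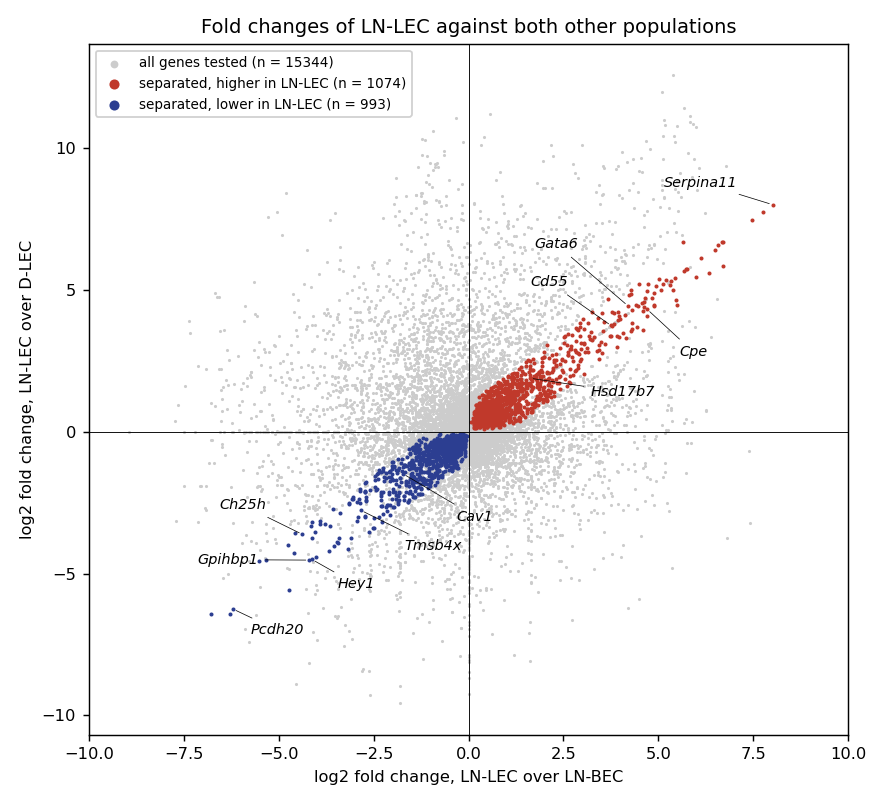
Each point is 1 of the 15344 genes tested, with the log2 fold change of LN-LEC over LN-BEC on the x axis and over D-LEC on the y axis, from the edgeR fit. The 1074 separated genes that were higher (red) and the 993 that were lower (blue) lie along the diagonal, where the rule places them, and most of them sit within a few log2 units of 0.

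The higher genes with the widest gap between libraries included a complement regulator, a peptidase, adhesion molecules and proteoglycans. Over all separated genes whose fold differences are given below, the SE of the log2 fold change ran from 0.08 to 1.58, with a median of 0.17. Cd55 encodes decay-accelerating factor, a membrane protein that dissociates the convertases of complement, and lies on chromosome 1, 132335607 to 132359317 of mm9. Its normalized count was 53291, 60572, 57418 and 51064 in LN-LEC, 3824, 3613 and 4939 in LN-BEC and 3952, 4003 and 4739 in D-LEC. No LN-LEC library came near the others, and the means differed 13.5-fold over LN-BEC and 13.1-fold over D-LEC. Carboxypeptidase E (Cpe), which trims peptide hormones and neuropeptides, was at 40105, 35244, 33474 and 33355 in LN-LEC, 1474, 848 and 1822 in LN-BEC and 1618, 1876 and 1901 in D-LEC, 25.7-fold over LN-BEC and 19.8-fold over D-LEC. Alcam, an adhesion molecule of the immunoglobulin superfamily that binds CD6 on T cells, was at 21748, 20894, 19955 and 16411 in LN-LEC, 577, 488 and 1229 in LN-BEC and 560.0, 746 and 596 in D-LEC. The highest of its other libraries was LN-BEC replicate 3, and the lowest LN-LEC library still stood far above it. Adam33, a membrane-bound metalloprotease, reached 3831 to 4703 in LN-LEC and 15.6 to 264 in the other libraries, and Il1rapl1, an IL-1 receptor family member best known from synapses, 72.3 to 90.5 in LN-LEC and 0 to 3.15 in the other libraries. Spock3, a proteoglycan of the testican family, reached 328 to 603 in LN-LEC and 2.59 to 18.2 in the other libraries.

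Some of these genes had no count at all elsewhere. Serpina11, a member of the serpin family, was at 49.3, 30.5, 19.2 and 25.8 in LN-LEC and at 0 in all 6 others, and Galnt14, a glycosyltransferase that starts O-glycans, at 27.2, 16.5, 27.1 and 32.7 and 0. Against 3 counts in each library of the other group, Serpina11 was at least 11.2-fold higher than LN-BEC and at least 10.1-fold higher than D-LEC. The bounds for Galnt14 were at least 9.28-fold and at least 8.38-fold higher. In the LN-BEC population, replicate 3 was the highest library for 14 of the 20 higher genes with the widest gap. That library also had the highest summed lymphatic markers of LN-BEC, and the part of this in the gap was not tested. Without it 1191 genes were separated as higher, 1016 of them among the 1074, and 1108 as lower, 969 of them among the 993.

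**Figure D2:**
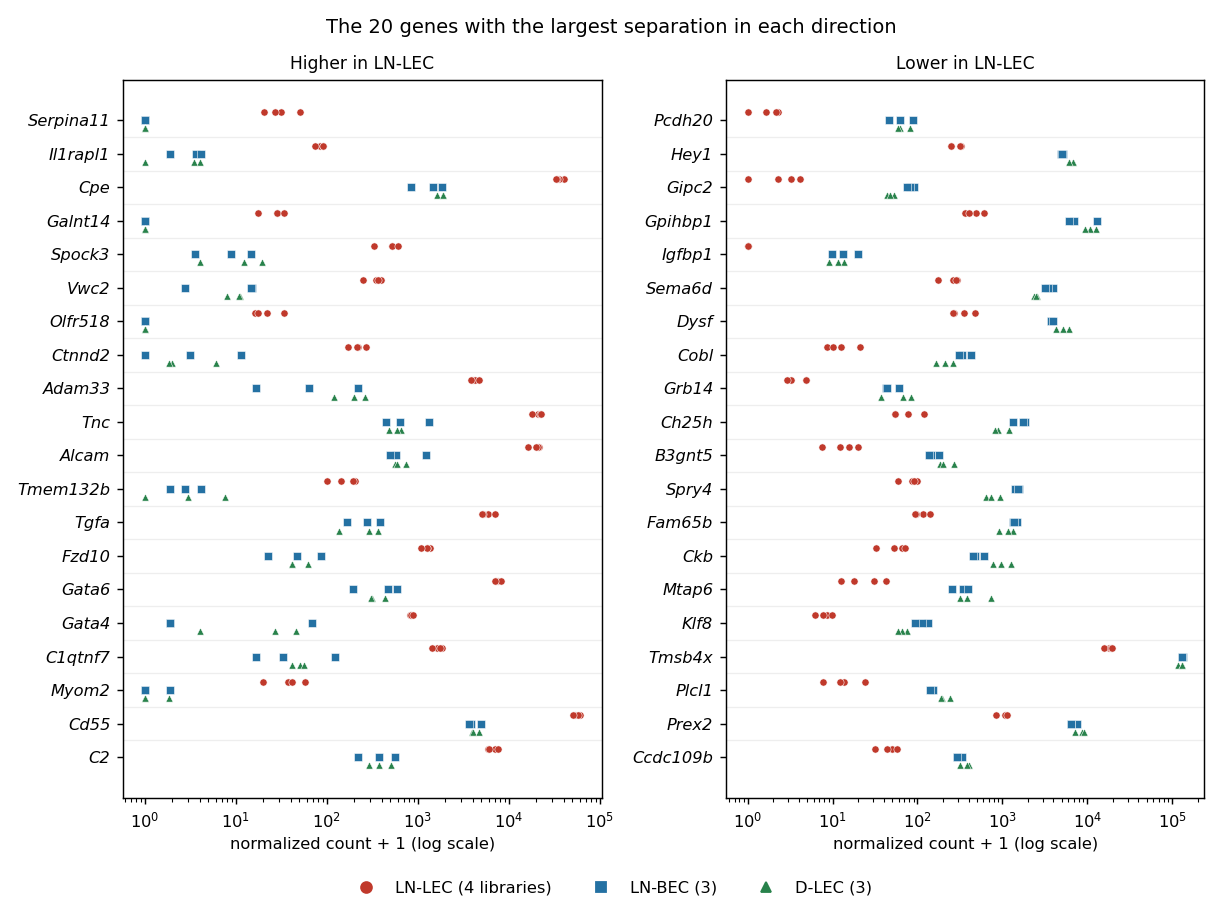
Normalized count + 1 on a log scale (x axis) in each of the 10 libraries, for the 20 higher (left) and the 20 lower (right) separated genes with the widest gap between LN-LEC and all other libraries. Circles are the 4 LN-LEC libraries, squares the 3 LN-BEC and triangles the 3 D-LEC libraries, and in every row the circles stand clear of the other symbols.

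A pair of zinc-finger transcription factors was higher in LN-LEC. Gata6 and Gata4 direct the development of heart, gut and other organs, and Gata6 is also known from peritoneal macrophages. Gata6 was at 7591, 7267, 8261 and 7035 in LN-LEC, 464, 195 and 588 in LN-BEC and 314, 309 and 431 in D-LEC, 18.1-fold over LN-BEC and 21.5-fold over D-LEC. Gata4 was at 850.3, 815, 850.3 and 879 in LN-LEC, 0.875, 0.865 and 68.3 in LN-BEC and 45.4, 3.01 and 25.6 in D-LEC. The 4 LN-LEC values of Gata4 lay close together, whereas the others ran from near 0 to 68.3. The binding motif AGATAA for such factors, searched on both strands, was in 7.82% of 844 promoter windows of higher genes and in 7.36% of 11971 windows of all genes tested.

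Ligands and receptors of several growth factor families were higher. Tgfa, a ligand of the EGF receptor, was at 5948, 5210.0, 7017 and 5019 in LN-LEC, 276, 167 and 388 in LN-BEC and 136, 369 and 290.0 in D-LEC, 20.95-fold over LN-BEC and 21.9-fold over D-LEC. Insulin-like growth factor 1 (Igf1) was at 15722, 15681, 11884 and 15058 in LN-LEC, 2853, 1788 and 2279 in LN-BEC and 1611, 1893 and 2339 in D-LEC. All 4 LN-LEC libraries of both genes were several times above every other library. The Wnt ligands Wnt11 and Wnt6 ran 249.9 to 394 in LN-LEC and 3.01 to 25.2 in the other libraries for the first, and 118 to 165 in LN-LEC and 5.25 to 25.2 in the other libraries for the second. Fzd10, a Frizzled receptor for Wnt proteins, ran 1089 to 1348 in LN-LEC and 21.6 to 85.1 in the other libraries. Vwc2 (brorin), a secreted antagonist of BMP, was 34.4-fold over LN-BEC and 37.4-fold over D-LEC. In the whole list of growth factors and their binding proteins 17 of 67 genes (25.4%) were called higher in both and 10 (14.9%) lower. The separated members that were lower included Fgf9 and Fgf1, ligands of FGF receptors, at 6.59-fold and 5.43-fold below LN-BEC and D-LEC for Fgf9 and 3.54-fold and 3.15-fold for Fgf1. They also included Ctgf, a matricellular protein, at 659 to 790.2 in LN-LEC and 1848 to 3593 in the other libraries, and Igfbp1, an IGF-binding protein without a count in LN-LEC. Igfbp1 was at 8.75, 12.1 and 18.9 in LN-BEC and 12.6, 8.02 and 10.7 in D-LEC. Against 3 counts in each LN-LEC library that is at least 4.09-fold and at least 3.22-fold lower.

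The receptor RANK and its decoy differed in opposite directions. Tnfrsf11a encodes RANK, through which the TNF family ligand RANKL acts on node stroma and osteoclast precursors, and Tnfrsf11b encodes osteoprotegerin, which binds RANKL and keeps it from RANK. Tnfrsf11a was at 29857, 26272, 17268 and 37361 in LN-LEC, 9159.9, 9408 and 4703 in LN-BEC and 4904, 4804 and 10165 in D-LEC. Tnfrsf11b was at 7.78, 2.54, 2.26 and 6.92 in LN-LEC, 111, 85.6 and 74.6 in LN-BEC and 94.6, 40.1 and 79.3 in D-LEC. The receptor was thus 3.57-fold over LN-BEC and 4.18-fold over D-LEC, and the decoy 18.6-fold below LN-BEC and 14.6-fold below D-LEC. Replicate 4 was the highest LN-LEC library for the receptor and replicate 3 the lowest, a spread of more than 2-fold within LN-LEC. Of 43 genes in the list of TNF ligands and receptors, 8 (18.6%) were called higher in both and 2 (4.65%) lower. Another separated member was the neurotrophin receptor Ngfr, at 239 to 284 in LN-LEC and 9.51 to 34.7 in the other libraries.

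The enzymes that make cholesterol were higher in LN-LEC as a group. Cells build sterols from acetyl-CoA by way of mevalonate, isoprenoids, squalene and lanosterol, and the same sterol-regulated factor, SREBP-2, drives these enzymes. Of 21 genes tested in the list of cholesterol synthesis, 12 (57.1%) were called higher in both comparisons and 0 lower, against a background of 9.74% and 6.8%. At adjusted p under 0.05, 17 of the 21 were higher against LN-BEC and 13 against D-LEC, with 0 and 1 lower. Separated were 13, from Mvk early in the pathway to Dhcr7 near its end. Their median difference was 1.76-fold over LN-BEC and 2.24-fold over D-LEC. The median log2 fold change over all 21 genes was 0.80 against LN-BEC and 0.67 against D-LEC.

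Promoter sequences of the pathway were taken from RefSeq (GRCm38.p6), in windows from 250 bases before to 50 bases after a start. Shown are the 250 upstream bases of 4 separated members, from mevalonate kinase (Mvk), mevalonate diphosphate decarboxylase (Mvd), isopentenyl diphosphate isomerase (Idi1) and the C4-methylsterol oxidase Sc4mol (Msmo1 in RefSeq), because they span the early and the late steps and all carry a CCAAT box, the binding motif of the factor NF-Y. The letters in capitals mark CCAAT on either strand, where ATTGG is the box read from the other strand. The Mvk stretch is chr5:114444019-114444268 on the plus strand, that of Mvd chr8:122443423-122443672 on the minus strand, that of Idi1 chr13:8885356-8885605 on the plus strand and that of Sc4mol chr8:64733579-64733828 on the minus strand, each written 5′ to 3′ along its gene.
Mvk: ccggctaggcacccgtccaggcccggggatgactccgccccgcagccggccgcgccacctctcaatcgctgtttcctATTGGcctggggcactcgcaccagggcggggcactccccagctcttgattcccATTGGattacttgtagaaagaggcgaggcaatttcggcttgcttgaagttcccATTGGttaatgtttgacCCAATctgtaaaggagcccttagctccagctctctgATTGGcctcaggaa
Mvd: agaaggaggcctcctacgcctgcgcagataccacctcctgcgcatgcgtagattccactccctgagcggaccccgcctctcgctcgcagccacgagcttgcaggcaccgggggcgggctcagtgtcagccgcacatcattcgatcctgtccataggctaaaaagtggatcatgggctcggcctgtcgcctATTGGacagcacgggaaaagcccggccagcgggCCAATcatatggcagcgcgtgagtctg
Idi1: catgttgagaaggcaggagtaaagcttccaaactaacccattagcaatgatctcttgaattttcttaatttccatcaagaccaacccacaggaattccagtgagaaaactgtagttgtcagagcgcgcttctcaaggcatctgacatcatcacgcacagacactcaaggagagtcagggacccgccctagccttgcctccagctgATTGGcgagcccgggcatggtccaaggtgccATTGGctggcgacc
Sc4mol: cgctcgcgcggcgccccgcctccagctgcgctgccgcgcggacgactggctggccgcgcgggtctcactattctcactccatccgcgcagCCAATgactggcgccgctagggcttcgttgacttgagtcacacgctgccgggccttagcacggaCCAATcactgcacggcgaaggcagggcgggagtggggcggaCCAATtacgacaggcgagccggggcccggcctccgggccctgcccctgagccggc

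CCAAT was in the window of 8 of the 9 separated pathway genes that had one (88.9%), Dhcr7 being the exception. It was in 38.4% of the 11971 windows of all genes tested. The same letters were also in the windows of all 6 pathway genes that had a window and were not separated, among them Ebp, whose level did not follow the group. The letters thus did not tell separated members of the pathway from the others. Over all separated genes its share was 39.6% of 844 windows for the higher and 34.4% of 788 for the lower genes.

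Among the single steps, Hsd17b7, a sterol ketone reductase, was at 3738, 4094, 2929 and 2529.7 in LN-LEC, 1170.4, 1104 and 1019 in LN-BEC and 747, 1133 and 835 in D-LEC, 3.03-fold over LN-BEC and 3.67-fold over D-LEC. Each of its LN-LEC libraries was more than 2 times the highest other library. Squalene epoxidase (Sqle) was at 972, 1319, 939.6 and 905 in LN-LEC, 608, 653 and 500.0 in LN-BEC and 558, 792 and 659 in D-LEC, and lanosterol demethylase (Cyp51) at 2025, 2102, 1683 and 1722 in LN-LEC, 879, 882 and 796 in LN-BEC and 745, 1255 and 821 in D-LEC. In Sqle and Cyp51 D-LEC replicate 2 was the nearest of the other libraries. Farnesyl diphosphate synthase (Fdps) was 2.27-fold over LN-BEC and 2.298-fold over D-LEC, lanosterol synthase (Lss) 1.73-fold and 2.24-fold, Sc4mol 2.55-fold and 2.24-fold, Sc5d 1.56-fold and 2.399-fold, Dhcr7 1.62-fold and 1.58-fold, Mvd 1.72-fold and 3.02-fold and Mvk 1.43-fold and 1.56-fold. Idi1 was separated at a low count, 14.3 to 20.4 in LN-LEC and 6.302 to 12.97 in the other libraries, and was not called in both.

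Other members did not share the pattern. Insig1, which retains the sterol sensor in the endoplasmic reticulum, was at 3083 (LN-LEC), 3616 (LN-BEC) and 2202 (D-LEC). Ebp, a sterol isomerase, differed by 0.02 ± 0.08 and 0.00 ± 0.08 (log2, SE). The separation thus held at 13 of the 21 genes and not at every step.

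**Figure D3:**
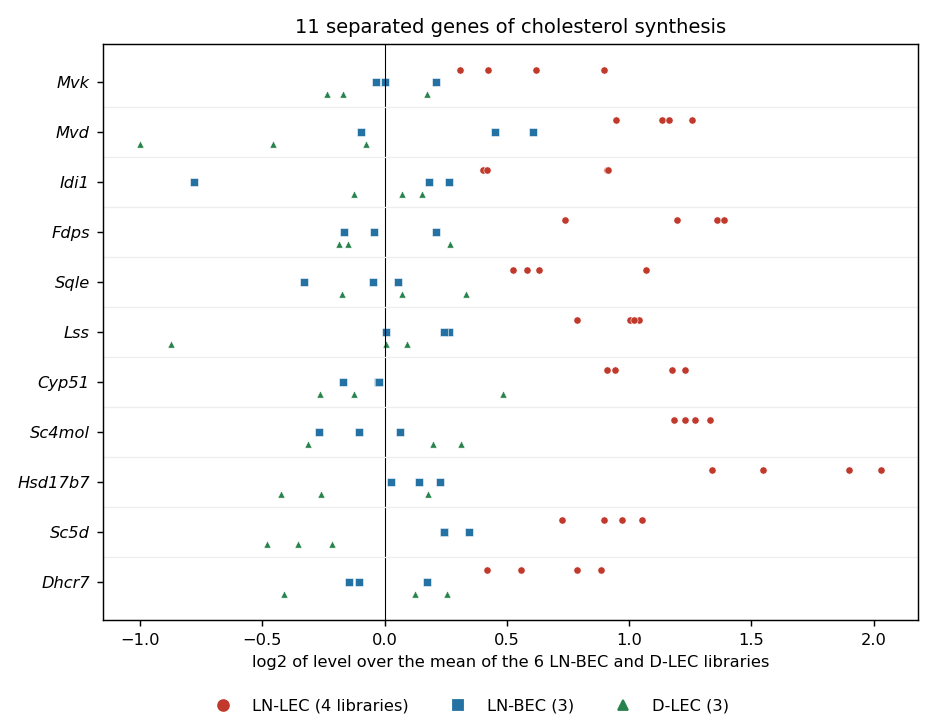
Level of 11 separated genes of cholesterol synthesis in each library, as log2 of the level over the mean of the 6 LN-BEC and D-LEC libraries (x axis), with genes in pathway order. Circles (LN-LEC, 4 libraries) lie to the right of all squares (LN-BEC, 3) and triangles (D-LEC, 3) in every row, and Hsd17b7 lies farthest out.

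Other genes of lipid metabolism differed in both directions. Ch25h makes 25-hydroxycholesterol, an oxysterol that restrains SREBP processing and is the precursor of a lymphocyte attractant. It was lower in LN-LEC, at 53.1, 76.2, 53.1 and 117 in LN-LEC, 1319, 1829.9 and 1742 in LN-BEC and 877, 826 and 1205 in D-LEC, 21.8-fold below LN-BEC and 12.9-fold below D-LEC. Acsl3, which activates long-chain fatty acids, was 2.53-fold over LN-BEC and 2.71-fold over D-LEC. Ugcg makes glucosylceramide, the first step of glycosphingolipids, and Psap encodes the saposins that help to degrade them in lysosomes. Ugcg was at 123287, 119105, 122308 and 93339 in LN-LEC, 64936, 65740.0 and 61129 in LN-BEC and 45125, 56076 and 57779 in D-LEC, and Psap ran 35684 to 43842 in LN-LEC and 21345 to 31108 in the other libraries. Gpihbp1, the anchor that carries lipoprotein lipase across capillary endothelium, was lower, at 360.4, 491, 409 and 607 in LN-LEC, 6899, 6113 and 12983 in LN-BEC and 12818, 10725 and 9366 in D-LEC. The lowest other library of Gpihbp1 held more than 10 times the highest LN-LEC library.

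Complement genes were higher at several points of the cascade. Of 38 genes tested 12 (31.6%) were called higher in both and 1 (2.63%) lower. Separated and higher were C2, C3, Cfp, Cd55, Daf2, Cr1l and C5ar1. C2, the protease of the classical convertase, was at 7010.0, 5860.0, 7602 and 6088 in LN-LEC, 376, 221 and 567 in LN-BEC and 375, 288 and 502 in D-LEC, 17.1-fold over LN-BEC and 17.1-fold over D-LEC. C3, the central component, was at 35944, 28737, 37141 and 29455 in LN-LEC, 5219, 1378 and 5384 in LN-BEC and 4997, 2858 and 6454 in D-LEC. Its LN-BEC libraries varied by more than 3-fold among themselves, and all lay well under LN-LEC. Properdin (Cfp), which stabilizes the alternative convertase, was at 1545, 1673, 1608 and 1496 in LN-LEC, 256, 273 and 349 in LN-BEC and 358, 237 and 219.8 in D-LEC, and the receptor C5ar1 ran 87.4 to 174 in LN-LEC and 2.48 to 21.04 in the other libraries. Among the regulators, Cr1l (Crry), the broadly expressed membrane inhibitor of mice, was higher by less, 1.37-fold over LN-BEC and 1.87-fold over D-LEC. Daf2, a close copy of Cd55 next to it, ran 190.0 to 269 in LN-LEC and 8.83 to 36.3 in the other libraries, and fragments that the 2 copies share may have been lost or split in counting. Cd59b, a membrane inhibitor of the terminal complex, was lower at low counts, 5.08 to 13.6 in LN-LEC and 15.1 to 31.998 in the other libraries, while its close copy Cd59a was among the genes called higher in both, so that the direction for this inhibitor is uncertain.

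Several other immune genes were higher. Sirpa, the receptor for the signal of self CD47, was at 58116, 53241, 58592 and 42655 in LN-LEC, 8964, 8877 and 7815 in LN-BEC and 14609.8, 16819 and 15982 in D-LEC, 6.21-fold over LN-BEC and 3.36-fold over D-LEC. Tmem173 encodes STING, the adaptor of cytosolic DNA sensing, and was at 8664, 9119, 8685 and 8925 in LN-LEC, 3215, 3506 and 3664 in LN-BEC and 2690.4, 2552 and 2756 in D-LEC. Its LN-LEC libraries varied little, and each was more than 2 times the highest other library. Dhx58 (LGP2), a cytosolic RNA sensor, was 1.401-fold over LN-BEC and 2.54-fold over D-LEC. Leukotriene C4 synthase (Ltc4s) was at 2189, 1937, 2398 and 1702 in LN-LEC, 96.3, 121 and 199 in LN-BEC and 241, 174 and 182 in D-LEC, and Alox5ap, which hands arachidonate to 5-lipoxygenase, ran 102 to 139 in LN-LEC and 12.3 to 70.4 in the other libraries. Hpgd, which inactivates prostaglandins, was 8.96-fold over LN-BEC and 10.1-fold over D-LEC, whereas the prostaglandin importer Slco2a1 was lower, 2.63-fold below LN-BEC and 1.99-fold below D-LEC. The list of prostanoid and eicosanoid genes had 8 of 26 genes (30.8%) called higher in both and 3 (11.5%) lower.

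In some lists many genes were called but few were separated. Of 26 genes of the NF-kB pathway 12 (46.2%) were called higher in both and 1 (3.85%) lower, while 2 were separated as higher, Nfkbib and the deubiquitinase Cyld, and 1 as lower, Nfkbiz. Nfkb2, the subunit of the noncanonical arm, had means of 5105 (LN-LEC), 3612 (LN-BEC) and 813 (D-LEC), so that both node populations stood above the diaphragm. Of 40 C-type lectins 12 (30%) were called higher in both and 1 (2.5%) lower, with 3 separated as higher (Clec4a3, Cd209e, Pla2r1) and Thbd as lower. Cd209e rests on very few fragments and had no count in LN-BEC or D-LEC. Its LN-LEC mean was 1.23 and 1.12 times the level that 3 counts in each LN-BEC or D-LEC library would give. Of 21 scavenger receptors 8 (38.1%) were called higher and 1 (4.76%) lower, with Scarf2 and Cd5l separated as higher and Cd68 as lower. Interferon-stimulated genes had 2 of 38 (5.26%) called higher and 0 lower, and at the 33 chemokines 4 (12.1%) were called higher and 1 (3.03%) lower, with none separated in either list.

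Metallothioneins and lysosomal proteases were higher. Mt1, which binds zinc and other metals, was at 4095, 4150.0, 4619 and 3704 in LN-LEC, 239.9, 177 and 1030.4 in LN-BEC and 637, 443 and 566 in D-LEC, and Mt2, its neighbour, ran 1369.8 to 1963 in LN-LEC and 51.02 to 321 in the other libraries. LN-BEC replicate 3 was the highest of the other libraries for both. Gstt1, a glutathione transferase, was 3.901-fold over LN-BEC and 6.92-fold over D-LEC, and Gpx4, which reduces lipid peroxides, 1.64-fold and 2.001-fold. Cathepsin D (Ctsd), an aspartic protease of lysosomes, was at 33497, 28458, 40305 and 27683 in LN-LEC, 7019, 7793 and 9189 in LN-BEC and 15375, 14637 and 14822 in D-LEC, and cathepsin H (Ctsh) was 3.61-fold over LN-BEC and 2.12-fold over D-LEC. The inhibitors of cysteine cathepsins differed in direction, as Cstb, which acts inside cells, was 2.63-fold over LN-BEC and 2.81-fold over D-LEC, and the secreted Cst3 was 2.14-fold below LN-BEC and 1.92-fold below D-LEC. In the list of cathepsins and cystatins 8 of 29 genes (27.6%) were called higher in both and 1 (3.45%) lower.

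Some genes of the mitochondrial respiratory chain were separated, by small amounts. Of 88 tested 14 were separated as higher and 3 as lower, beside 7% and 6.47% of all genes tested. Called higher in both were 10 (11.4%) and lower 1 (1.14%), close to the background for higher genes and under it for lower ones. Ndufa11, an accessory subunit of complex I, differed most, at 5356, 5177, 5688 and 5388 in LN-LEC, 2567, 2702 and 2983 in LN-BEC and 2485, 2840.5 and 2458 in D-LEC, 1.96-fold over LN-BEC and 2.08-fold over D-LEC. The median difference of the 14 was 1.25-fold over LN-BEC and 1.19-fold over D-LEC. Scaling by library totals moved the median of all genes by 0.21 (log2) against LN-BEC. The part of scaling in differences this small was not tested. Of 82 cytosolic ribosomal protein genes 2 (2.44%) were called higher and 1 (1.22%) lower. Among the 3 separated as higher, Rps3 was at 81068 to 97422 in LN-LEC and 15274 to 29581 in the other libraries. Processed copies of such genes are common in the genome, and the counting left out fragments with several matches, so that its level is uncertain.

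Among the genes that were lower in LN-LEC, Hey1 had one of the widest gaps. It is a repressor that Notch receptors switch on, and it lies on chromosome 3, 8663359 to 8667038 of mm9. Its normalized count was 323, 248, 247 and 319 in LN-LEC, 5147, 4935 and 4984 in LN-BEC and 6735, 6867 and 6023 in D-LEC, 17.7-fold below LN-BEC and 23.03-fold below D-LEC. Notch signalling passes from ligands of the Delta and Jagged families on one cell to receptors on the next and governs arterial identity and vessel sprouting. Dll4, the endothelial Delta ligand, was at 2302, 2148, 2159 and 2616 in LN-LEC, 4316, 4384 and 5125 in LN-BEC and 6737, 7145 and 5948 in D-LEC, 1.998-fold below LN-BEC and 2.87-fold below D-LEC. The receptor Notch1 was at 3403, 3577, 3495 and 3464 in LN-LEC, 4381, 4772 and 4142 in LN-BEC and 9081, 7282 and 7365 in D-LEC. Its D-LEC libraries were the highest, and LN-LEC lay just under LN-BEC, at 1.27-fold and 2.27-fold below the 2 populations. The ligand Dll1 was 1.78-fold below LN-BEC and 1.33-fold below D-LEC.

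In the opposite direction, the ligand Jag1 was 1.67-fold over LN-BEC and 1.93-fold over D-LEC, and the coactivator Maml2 1.36-fold and 1.44-fold. Of 24 genes of the Notch list 10 (41.7%) were called lower in both and 3 (12.5%) higher, beside backgrounds of 6.8% and 9.74%. The receptor Notch2 was called higher in both but was not separated, with means of 47764 (LN-LEC), 6629 (LN-BEC) and 25486 (D-LEC). Hes1, another target of Notch, had a log2 fold change of -0.06 ± 0.17 (SE) against LN-BEC (edgeR adjusted p = 0.81) and of -1.60 ± 0.17 against D-LEC (adjusted p = 8.1e-06). The motif TGGGAA of the Notch cofactor RBPJ was in 22% of 788 promoter windows of lower genes and in 23.6% of all windows.

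Regulators of endothelial identity were called lower in both comparisons more often than higher. In a list of 45 endothelial transcription factors, which also holds the receptor kinase Tie1, 15 (33.3%) were called lower in both and 4 (8.89%) higher. Against LN-BEC alone the list was split nearly evenly, with 20 genes higher and 21 lower at adjusted p under 0.05. Against D-LEC 8 were higher and 22 lower. Sox18, which acts in the first specification of lymphatic cells, was at 4188, 3642, 4504 and 4373 in LN-LEC, 10810.0, 11440.5 and 10367 in LN-BEC and 11974, 9995 and 9213 in D-LEC, 2.603-fold below LN-BEC and 2.49-fold below D-LEC. Mef2c, a MADS-box factor of endothelium and muscle, was at 8193, 7635, 7948 and 6879 in LN-LEC, 35524, 36302 and 27567 in LN-BEC and 19553, 25913 and 24191 in D-LEC. For Sox18 and Mef2c every other library was more than 2 times every LN-LEC library. Tcf4, a partner of class II bHLH factors, was 3.48-fold below LN-BEC and 2.15-fold below D-LEC, Meox1 2.9000-fold and 2.13-fold, Bcl6b 2.82-fold and 3.58-fold and Tie1 1.498-fold and 1.996-fold. Foxo1, which restrains endothelial growth, was lower by less, 1.25-fold and 1.53-fold. Higher were Hhex, 2.07-fold over LN-BEC and 1.25-fold over D-LEC, and Zeb1, 1.6999-fold and 1.65-fold. In Zeb1 LN-LEC replicate 4, at 15274, stood above the other 3, which ran from 7322 to 7746. Ets1 met the rule with means of 9582, 9210.1 and 7655, a difference of 1.04-fold over LN-BEC.

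The Krüppel-like factors Klf2 and Klf4, which laminar flow induces in endothelium, were lower. Klf2 was at 2331, 2304, 2724 and 4376 in LN-LEC, 6362, 7700.2 and 12197 in LN-BEC and 11851, 11261 and 10349.8 in D-LEC, and Klf4 at 6427, 5762, 5994 and 10099.9 in LN-LEC, 19748, 16736 and 23943 in LN-BEC and 29598, 37434 and 31650.1 in D-LEC. In each of them LN-LEC replicate 4 was the highest of its population and the other 3 lay close together. Klf2 was 2.98-fold below LN-BEC and 3.802-fold below D-LEC, and Klf4 2.85-fold and 4.65-fold. Thrombomodulin (Thbd), an anticoagulant of endothelium that these factors are known to raise, was lower by less, at 33377 to 36708 in LN-LEC and 41924 to 55386 in the other libraries.

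Genes of the immediate early response, which cells switch on within minutes of a stimulus, were lower as a group. Tissues were disrupted and digested with enzymes before the sort. The data hold no levels from before these steps, for these genes or for Klf2 and Klf4. Of 32 genes in a list of immediate early and heat shock genes 14 (43.8%) were called lower in both and 0 higher, and 8 were separated as lower, of which Fosb and Zfp36 were not among the called genes. Fosb, a partner of Jun in AP-1, was at 1815, 1112, 970.2 and 5542 in LN-LEC, 7714, 5645 and 12858 in LN-BEC and 14735, 13934 and 13568 in D-LEC. Nr4a1, an orphan nuclear receptor, was at 242, 218, 187 and 710.4 in LN-LEC, 1661, 1700.2 and 2451 in LN-BEC and 1013, 1197 and 1251 in D-LEC. In 7 of the 8 genes LN-LEC replicate 4 was the highest library of its population, and in Zfp36, which destabilizes inflammatory mRNAs, it was at 9906 beside 3158, 2907 and 2792 in the other 3. Without that library the means of LN-BEC and D-LEC were 6.73 and 10.8 times that of LN-LEC for Fosb, in place of 3.703 and 5.97, 8.98 and 5.35 times for Nr4a1, in place of 5.71 and 3.399, and 4.60 and 4.80 times for Zfp36, in place of 2.89 and 3.02. The number of list genes called lower in both was then 20. Ier2 was 3.62-fold below LN-BEC and 4.396-fold below D-LEC with all libraries, and Nr4a2 5.499-fold and 3.29-fold. Fos itself was not separated, at 4955, 3576, 3598 and 14208 in LN-LEC, 12238, 9113 and 23871 in LN-BEC and 30232, 36689.7 and 36080.5 in D-LEC. For Fosb, Nr4a1 and Fos, replicate 3 was the highest LN-BEC library.

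Genes of caveolae were lower in LN-LEC. These flask-shaped pits of the plasma membrane are built from caveolins and cavins and are dense in endothelium, where they serve transport and buffer stretch. Of 11 genes tested in the list, 5 (45.5%) were called lower in both and 0 higher, and the same 5 were separated. Cav1, the main caveolin, was at 15097, 13764, 14165 and 19723 in LN-LEC, 53058, 48867 and 56386 in LN-BEC and 38864, 44336 and 49345 in D-LEC, 3.36-fold below LN-BEC and 2.82-fold below D-LEC. Cav2, its partner, was at 3351, 3263, 3420.5 and 3353 in LN-LEC, 8524, 6832 and 8332 in LN-BEC and 10372, 11323 and 11119.9 in D-LEC. The 4 LN-LEC libraries of Cav2 were nearly equal, and the nearest other library was LN-BEC replicate 2. Ptrf (cavin-1), which the coat needs, was 2.52-fold below LN-BEC and 2.87-fold below D-LEC, Prkcdbp (cavin-3) 2.29-fold and 2.73-fold and Ehd2, which sits at the neck, 2.15-fold and 2.69-fold. The remaining 6 genes were not called in one direction in both comparisons. Among them, Sdpr (cavin-2) had means of 25392 (LN-LEC), 21100.1 (LN-BEC) and 75558 (D-LEC).

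**Figure D4:**
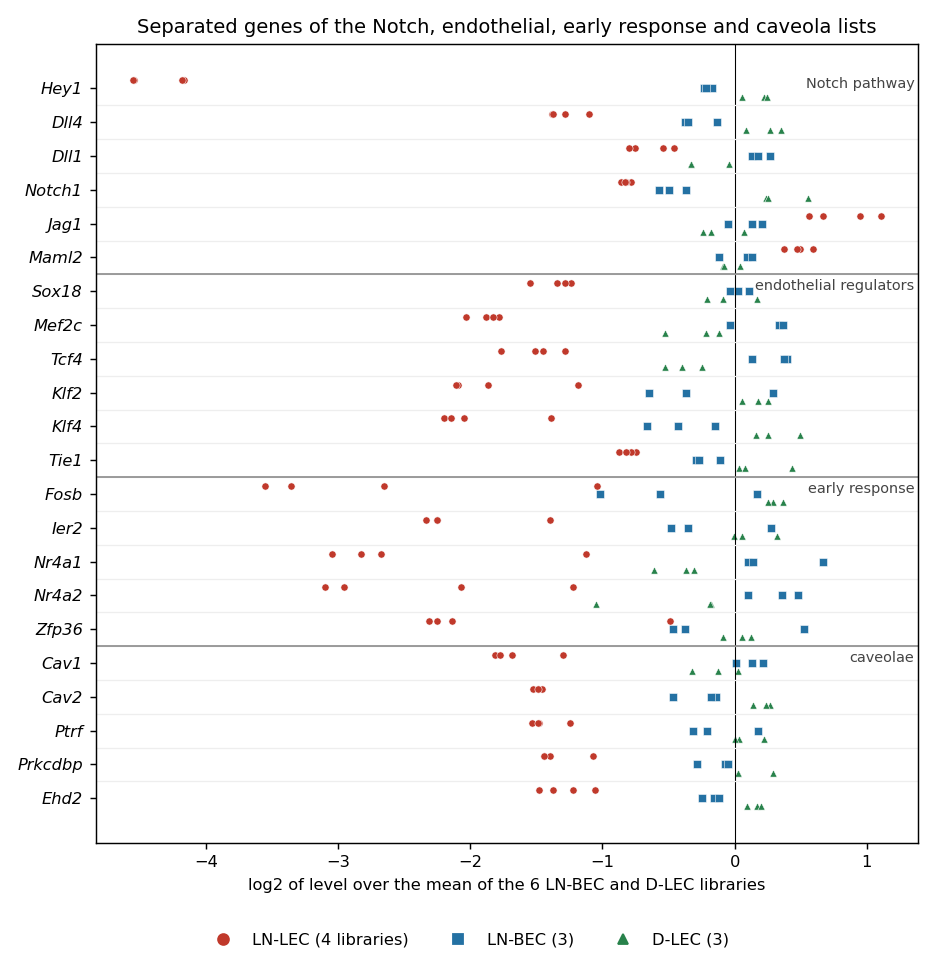
Level in each library as log2 of the level over the mean of the 6 LN-BEC and D-LEC libraries (x axis), for separated genes of the Notch pathway, of endothelial regulators, of the early response and of caveolae. Circles are LN-LEC (4 libraries), squares LN-BEC (3) and triangles D-LEC (3), and in most early response genes a single circle, that of replicate 4, lies closer to the other populations than the rest.

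The actin cytoskeleton was lower in part. Tmsb4x, thymosin beta 4, which holds actin monomers in reserve, was at 18292, 15726, 19284 and 19759 in LN-LEC, 133333, 132096 and 130899 in LN-BEC and 116486, 131003 and 130502 in D-LEC, 7.23-fold below LN-BEC and 6.898-fold below D-LEC. The LN-LEC libraries lay far from the other 6, which differed little among themselves. Actg1, cytoplasmic gamma actin, was 1.94-fold below LN-BEC and 2.24-fold below D-LEC, moesin (Msn), which links actin to the membrane, 2.1000-fold and 2.105-fold, Actn4 1.79-fold and 1.85-fold, filamin A (Flna) 1.65-fold and 1.44-fold and Tagln2 1.47-fold and 2.34-fold. Actb, often used as a reference gene, was separated as lower, 1.23-fold below LN-BEC and 1.47-fold below D-LEC, and was not called in both. In the whole list 8 of 54 genes (14.8%) were called lower in both and 2 (3.7%) higher, so that most members did not pass both tests. Actin and thymosin genes have close copies elsewhere in the genome, and fragments that match several places were not counted.

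Cell contacts and basement membrane changed by gene. Connexin 43 (Gja1), a gap junction protein, was at 10699, 12000.5, 9984 and 12147 in LN-LEC, 26469, 21812 and 22510.5 in LN-BEC and 33865, 57823 and 43919 in D-LEC. Connexin 45 (Gjc1) was 2.81-fold below LN-BEC and 3.24-fold below D-LEC. Podocalyxin (Podxl), a sialomucin of the luminal surface, was 4.83-fold below LN-BEC and 4.47-fold below D-LEC. Claudin 11 (Cldn11), a tight junction strand protein known from myelin, was higher instead, at 5753, 6034, 5057 and 6132 in LN-LEC, 347, 383 and 583 in LN-BEC and 521, 576 and 579 in D-LEC, 13.1-fold over LN-BEC and 10.3-fold over D-LEC. Its lowest LN-LEC library was more than 8 times the highest other library. Protocadherin 20 (Pcdh20) had the widest gap of all lower genes, at 0, 1.27, 1.13 and 0.629 in LN-LEC, 45.5, 60.5 and 88.2 in LN-BEC and 60.5, 58.1 and 80.97 in D-LEC. Of 91 cadherins and protocadherins 9 (9.89%) were called higher in both and 7 (7.69%) lower, shares near the background.

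Among matrix genes, the laminin chains Lamc1 and Lamb2 of basement membranes were lower, 1.42-fold and 1.43-fold for Lamc1 and 2.12-fold and 1.44-fold for Lamb2 below LN-BEC and D-LEC, as was the basement membrane linker Nid2, 1.2003-fold and 1.496-fold. Elastin (Eln) was 2.85-fold over LN-BEC and 2.09-fold over D-LEC, and the fibril-associated collagen Col16a1, 5.15-fold and 3.26-fold. Fibulin 2 (Fbln2) was lower, at 786, 708, 608 and 943 in LN-LEC, 4768, 3975 and 4576 in LN-BEC and 8499, 8166 and 7627 in D-LEC. Of 77 matrix glycoproteins and proteoglycans 15 (19.5%) were called higher in both and 8 (10.4%) lower, and of 43 collagens 7 (16.3%) and 6 (14%).

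Axon guidance genes went both ways. Of 72 tested, 8 (11.1%) were called higher in both comparisons and 9 (12.5%) lower, beside 9.74% and 6.8% over all genes, with 4 separated as higher and 3 as lower. Ntn4, a secreted netrin, was separated as higher, 5.31-fold over LN-BEC and 5.22-fold over D-LEC. Efna4, an ephrin, Ephb2, an ephrin receptor, and Sema3b, a secreted semaphorin, were also separated as higher. Sema6d, a transmembrane semaphorin on the lower side, was at 259, 292, 172 and 281 in LN-LEC, 3905, 3409.9 and 3159 in LN-BEC and 2344, 2549.9 and 2483 in D-LEC. Outside that list, Spry4, an inhibitor of growth factor signalling through Ras, was at 58.3, 86.3, 98.4 and 91.2 in LN-LEC, 1411, 1552 and 1512 in LN-BEC and 646, 946 and 735 in D-LEC. For both genes the lowest other library held more than 6 times the highest LN-LEC library. In the list of nucleotide and S1P signalling, 5 of 35 genes tested (14.3%) were called higher in both and 6 (17.1%) lower, and 2 were separated as higher and 5 as lower. P2ry1, a receptor for ADP, was 3.11-fold over LN-BEC and 3.58-fold over D-LEC. Adora2a, a receptor for adenosine, was at 67.4, 59.7, 56.5 and 113 in LN-LEC, 513, 369 and 558 in LN-BEC and 867, 924 and 911 in D-LEC, and adenosine deaminase (Ada), which removes its ligand, was 2.599-fold below LN-BEC and 3.48-fold below D-LEC. Of the phosphofructokinase isoforms of glycolysis, the muscle form Pfkm was 1.36-fold over LN-BEC and 2.16-fold over D-LEC. The liver form Pfkl was 1.45-fold below LN-BEC and 1.32-fold below D-LEC, and the platelet form Pfkp 1.98-fold and 1.67-fold. Pfkfb3, whose product activates the enzyme, was 1.79-fold over LN-BEC and 2.36-fold over D-LEC.

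**Figure D5:**
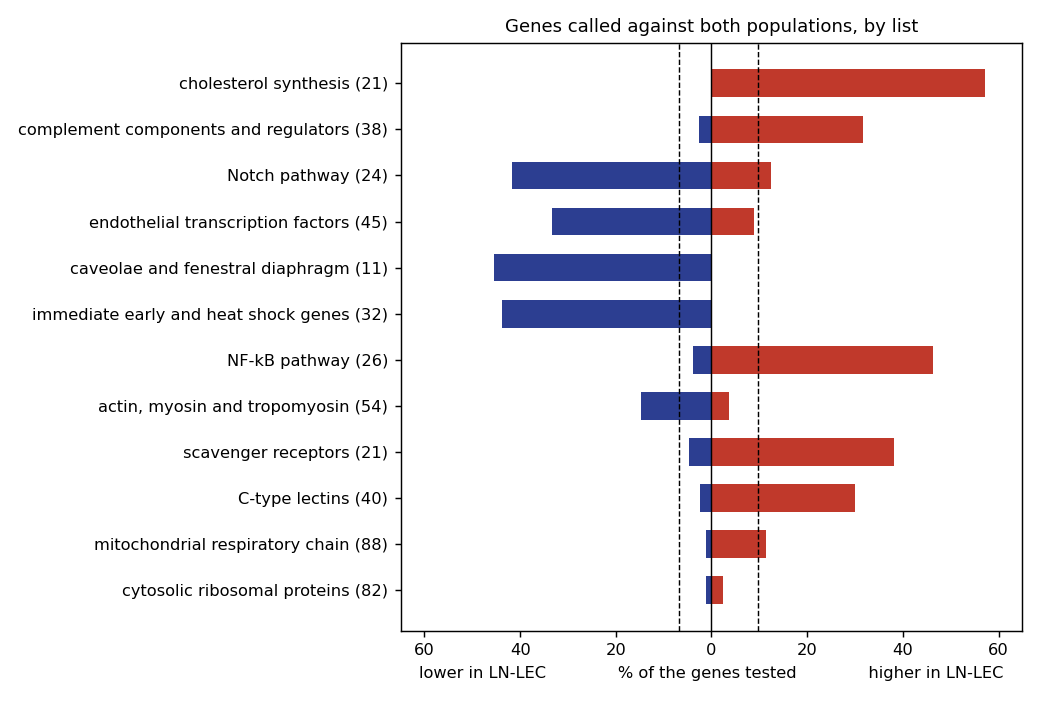
Percent of the genes tested in each list (number in parentheses) that were called higher (red, right) or lower (blue, left) in LN-LEC against both other populations by edgeR at adjusted p under 0.05. Dashed lines mark the share over all 15344 genes, 9.74% higher and 6.8% lower. The bars of cholesterol synthesis, NF-kB, Notch, caveolae and immediate early genes reach far past them, on one side each. The Notch bar also passes the line for higher genes by a little, at 12.5%.

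Among markers of other cell types, the dendritic list had the largest share called higher. Of its 8 genes tested, 3 (37.5%) were called higher in both comparisons and 0 lower, beside the 9.74% over all genes. Clec9a, a C-type lectin receptor for dead cells, was at 2379 to 2806 in LN-LEC and 217 to 1166 in the other libraries. Xcr1, a chemokine receptor, was at 8.801 to 36.2 in LN-LEC and 0 to 8.65 in the other libraries, and Siglech, a lectin of plasmacytoid dendritic cells, at 16.97 to 31.7 in LN-LEC and 0 to 5.25 in the other libraries. These 3 genes did not overlap between LN-LEC and the other libraries, but were not separated by the rule, because their LN-BEC and D-LEC means were more than 2-fold apart. The markers chosen to define dendritic cells were Itgax, Flt3, Zbtb46 and Xcr1. Itgax and Flt3 were at 6.92 or less in every library, while Xcr1 was among the genes called higher, and the level of Zbtb46 is not given here. Of the 20 macrophage genes, 1 (5%) was called higher in both and 3 (15%) lower. Aif1 was separated as higher, at 112 to 154 in LN-LEC and 8.02 to 23.96 in the other libraries, and Cd68 as lower, at 117 to 172 in LN-LEC and 231 to 650.3 in the other libraries. Among 11 T cell genes, 2 (18.2%) were called higher in both and 3 (27.3%) lower. Lck was separated as higher, at 207 to 245 in LN-LEC and 89.3 to 176 in the other libraries, and Cd28 as lower, at 2.54 to 12.6 in LN-LEC and 17.03 to 57.9 in the other libraries. Batf3 of the dendritic list was higher, at 33.3 to 39.4 in LN-LEC and 10.5 to 27.3 in the other libraries, and Pmel of the melanocyte list lower, at 29.2 to 49.03 in LN-LEC and 56.8 to 98.04 in the other libraries. The platelet list had 2 of 10 genes tested (20%) called higher in both, Gp1ba and Itga2b, and 1 lower, Ppbp. None of the B cell, neutrophil, platelet, fibroblastic reticular, pericyte, skeletal muscle, mesothelial, adipocyte or erythroid markers was separated in either direction.

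Genes lay close to the limits of the rule on both sides. Among genes with a mean of at least 100 in some population, Glipr2 lay just inside the 2-fold limit, with LN-BEC and D-LEC means 1.999-fold apart, and Postn just outside it, at 2.002-fold. Among the lower genes Ccdc69 lay inside at 1.991-fold and Ets2 outside at 2.0004-fold. The gap to the nearest other library was 2.3e-05 on the log2 scale for Stoml1, the last gene inside, and -0.00014 for Bnip3l, the first outside. Among the lower genes it was 0.00054 for Inpp5d and -1.7e-06 for Star.

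Position, length and promoter composition were not used by the rule. Separated genes that were higher lay next to another such gene along the chromosome in 19.6% of cases and lower genes in 20.7%, while 13.3% and 12.4% of all genes placed had such a neighbour. The longest runs of adjacent genes were of 4, as for Dscaml1, Cep164, Bace1 and Rnf214 on chromosome 9, 45238376 to 45714960 of mm9, all higher. Adjacent genes can share fragments where they overlap, and the counting ignored strand. The median exon length was 3018.5 bases for higher and 3015 for lower genes, against 2781 for all genes tested. A median of 20 and 21 CpG dinucleotides stood in the promoter windows of higher and lower genes and 19 in those of all genes.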

How the data were processed

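RNA was sequenced from sorted mouse endothelial cells in 10 libraries: 4 of lymph node lymphatic, 3 of lymph node blood and 3 of diaphragm lymphatic endothelium. The authors aligned paired reads to mm9 with STAR and counted fragments over exons per gene with featureCounts 1.4.4, keeping pairs with both ends mapped, without strand and without fragments that matched several places, and the deposited table holds these raw counts. Library totals ran from 22429940 to 48906070. The version of STAR is not given in the sources used here.

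From the counts, 3804 rows of predicted, RIKEN or unnamed genes were left out of the tests, and 15344 genes with a mean of at least 1 in at least 1 population entered an edgeR 4.0.16 fit under R 4.3.3 (scaled by TMM, 1 mean per population, robust quasi-likelihood F-test, Benjamini-Hochberg adjusted p under 0.05). Levels are counts divided by DESeq2 1.42.0 size factors. Separated genes were found on these levels by the rule given at the start and got no p-value, as the values that chose them would also be the values tested. Genes with no count in a group were bounded with 3 counts per library. Named among separated genes were, in each direction, the 20 with the widest gap and the 10 with the highest level. All separated members of the lists were also named, as were up to 4 other members of each list with the highest mean, the 3 genes on each side of both limits (mean of at least 100) and the defining cell type markers. Some genes that meet this rule are not reported here. The genes and lists were chosen with earlier results of these data known. Alternatives were DESeq2, other scalings, filters and limits, a test against 2-fold and leaving out each library. The scripts were tested on simulated data. The labels do not say how the pools of cells relate to each other, so that p-values measure the spread between these libraries, which may be technical.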

Additional observations from a re-analysis of the deposited data

Results flagged for a closer look

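Single LN-LEC libraries stood apart from the other 3 in 15 of 159 named genes, where the gap to the nearest library as a share of the whole range exceeded Dixon's 95% critical value for 4 samples. Chance alone flags about 1 in 20 such groups. In 13 of the 15 the library was LN-LEC replicate 4, the deepest. It was the highest LN-LEC library for Klf4 (10099.9 normalized counts), Meox1 (3677.6), Zeb1 (15273.7), Ier2 (1600.54), Nr4a1 (710.373), Zfp36 (9905.62), Prkcdbp (1841.31), Fos (14207.5) and Hes1 (3985.01). It was the lowest for Ugcg (93339.3), Lss (98.0693), Gpx4 (265.29) and Ets2 (24970.6). In Sqle replicate 2 was apart at 1319, and in Scarf2 replicate 1 was apart at 368.13.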

How the results depend on the processing

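Counts of called genes kept within 1.5 times of their values with DESeq2, with its size factors in edgeR, with edgeR's expression filter, without a filter and with predicted genes kept. A test against a 2-fold change gave fewer calls. Against LN-BEC 1064 genes were higher and 1065 lower, against D-LEC 1504 and 924, and in both 506 and 218. In the lists it left 3 genes of cholesterol synthesis, 2 of NF-kB, 5 scavenger receptors and 7 C-type lectins as higher, and 4 of the Notch pathway, 7 endothelial transcription factors, 3 of caveolae, 3 immediate early genes and 1 actin gene as lower. That test asks for a larger difference by its construction. Without each library in turn, 2634 to 3125 genes were higher and 2432 to 2907 lower than in LN-BEC, 3287 to 3808 and 2944 to 3425 against D-LEC, and 1316 to 1464 and 879 to 1036 in both. Separated genes numbered 1139 to 1312 (higher) and 1064 to 1219 (lower). Genes of the immediate early list called lower in both ran from 11 to 20, with 20 reached without LN-LEC replicate 4, and genes of cholesterol synthesis called higher from 10 to 13. Among 316 single-gene comparisons no called direction reversed in these alternatives, and up to 11 calls were lost without any single library. Of separated genes, 548 were lower with library totals as the scaling, 1714 were higher without the 2-fold limit, and there were 345 higher and 204 lower where the gap had to be at least 1.5-fold. Without LN-LEC replicate 4 and LN-BEC replicate 3 together, chosen after seeing the data, 1428 genes were higher and 975 lower in both, and 1433 and 1362 were separated. No paired analysis was possible because the labels give no replicate numbers. With at least 22429940 fragments in each library, counting limits mainly the genes of a few normalized counts, such as Idi1, Cd59b, Tnfrsf11b and Cd209e.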

Other observations

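Several runs of adjacent genes were separated in the same direction. On chromosome 6 of mm9, 100178559 to 100818711, the 4 genes Rybp, Shq1, Gxylt2 and Ppp4r2 were all higher in LN-LEC. On chromosome 2, 157250029 to 157392097, Src, Blcap and Nnat were higher. On chromosome 7, 133903140 to 133924028, the 3 genes Mapk3, Gdpd3 and Ypel3 were lower. These genes were chosen after their values were seen.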
